A study of Mus musculus with 13 samples.

Results

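The miR-181 family of microRNAs (miRNAs) was followed across 13 mouse arrays: normal thymocytes, Notch1-driven T-cell acute lymphoblastic leukaemia (T-ALL) and 1 cultured T-ALL line. The 5 members are defined by their family name and are mmu-miR-181a-5p, mmu-miR-181b-5p, mmu-miR-181c-5p, mmu-miR-181d-5p and mmu-miR-181a-1-3p, the prefix mmu- (mouse) being left out of most names below. They are 5 of the 1122 mouse miRNAs on the array, which carries the names of miRBase release 18. The array also holds 5 more mouse names that start with miR-181.

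DN and DP cells were sorted by flow cytometry from thymus of C57BL/6 mice, DN as CD4-CD8- and DP as CD4+CD8+ thymocytes. Early-stage (ES) and late-stage (LS) T-ALL cells were sorted as CD4+CD8+ from spleen of BL-6 bone marrow chimeras described as N1ICD-transformed, N1ICD being the intracellular, active part of Notch1. Each of these 4 groups had 3 arrays, which the series calls biological replicates. M295, a mouse T-ALL line from BL-6 that was sorted from culture, had 1 array. The ages of the mice, the construct that carries N1ICD, the definition of early and late stage and the number of animals behind a sample are not given in the sources used here. No marker that would separate transformed cells from the recipient's own CD4+CD8+ cells is named. All T-ALL cells came from spleen and all thymocytes from thymus, so wherever the 2 are set against each other, tissue and leukaemia cannot be told apart. CD4 and CD8 are proteins that a miRNA array does not read, so the sort itself was not checked.

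A miRNA gene is transcribed as a longer RNA and cut to a hairpin, from whose 5′ arm (5p) or 3′ arm (3p) a short mature strand is loaded into an Argonaute protein. The mature strand pairs with messenger RNAs mainly through its seed, the bases near its 5′ end, and lowers their translation and stability. In T cells miR-181a is known as a regulator of sensitivity to antigen: it represses several phosphatases that dampen T-cell receptor signalling, it is abundant in DP thymocytes undergoing selection, and in mice its loss weakens signalling at that stage. In mice the miR-181a-1 and miR-181b-1 genes have also been linked to Notch signalling and to Notch-driven T-ALL.

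The mature sequences show what the members share. They were read from RefSeq (build GRCm38.p6), which held all 5 members, and are written 5′ to 3′ with the seed, bases 2 to 8, in capitals.
miR-181a-5p: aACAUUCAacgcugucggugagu
miR-181b-5p: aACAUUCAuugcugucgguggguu
miR-181c-5p: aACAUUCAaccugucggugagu
miR-181d-5p: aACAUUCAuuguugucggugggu
miR-181a-1-3p: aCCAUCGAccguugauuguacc

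The 4 5p members share 1 seed, and among 1679 mouse mature names in the RefSeq table no name outside these 4 carries it. miR-181a-5p and miR-181c-5p are 1 edit apart, an edit being a single base exchanged, added or removed. miR-181b-5p and miR-181d-5p are 2 edits apart: their only exchange is C12U, counted from 1 at the 5′ end with the base of miR-181b-5p first, and their lengths are 24 and 23 bases. miR-181a-5p differs from miR-181d-5p by A9U, C10U, C12U and A21G, all outside the seed. The probe sequences are not in the files, so how far a probe for one member also binds another was not tested. miR-181a-1-3p has another seed, which 1 more RefSeq mature name holds, miR-181c-3p.

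The genes lie in 3 pairs. On GRCm38.p6, Mir181a-1 and Mir181b-1 lie on the plus strand of chromosome 1, where miR-181a-5p occupies chr1:137966468-137966490 and miR-181b-5p chr1:137966650-137966673. Mir181a-2 and Mir181b-2 lie on the plus strand of chromosome 2, where the same mature sequences occupy chr2:38852741-38852763 and chr2:38853845-38853868. Mir181d and Mir181c lie on the minus strand of chromosome 8, with miR-181d-5p at chr8:84178759-84178781 and miR-181c-5p at chr8:84178924-84178945. Within a pair the 5p strands start 182 bases apart on chromosome 1, 1104 on chromosome 2 and 164 on chromosome 8. Since 2 genes give the same miR-181a-5p and 2 give the same miR-181b-5p, their 5p signals do not separate chromosome 1 from chromosome 2.

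The 3p strand does name its gene. The hairpin of Mir181a-1 (chr1:137966455-137966541, plus strand, 87 bases) is shown because both of its arms were measured; the mature 5p and 3p strands are in capitals, and miR-181a-1-3p lies at chr1:137966508-137966529.
Mir181a-1: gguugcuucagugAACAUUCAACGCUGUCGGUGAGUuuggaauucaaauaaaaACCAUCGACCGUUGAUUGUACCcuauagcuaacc
The 3p strand of the sister gene on chromosome 2 (chr2:38852785-38852806) differs from it by U5C and U16C, with the base of miR-181a-1-3p first and the first exchange inside the seed.
miR-181a-2-3p: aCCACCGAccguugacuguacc

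Each member was read by 2 probes with 20 spots each. The scanner software marks each spot that is well above background; a miRNA was taken as above background where 50% or more of the retained spots of 1 probe or more bore that mark. The 4 5p members were above background on all 13 arrays, and miR-181a-1-3p on 12 of 13, the exception being ES 1. All 5 members passed the filter for testing, that is, the full set of 3 arrays of some group above background, which 229 mouse miRNAs passed. The other 5 names, miR-181a-2-3p, miR-181b-1-3p, miR-181b-2-3p, miR-181c-3p and miR-181d-3p, were above background on 0 of 13 arrays and were not tested. Thus of the 3p strands the array names, that of Mir181a-1 was the one measured, and the strand of Mir181a-2 was not well above background even on the DP arrays, where miR-181a-1-3p was highest.

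The arrays differed in quality. The number of mouse miRNAs above background ran from 115 on ES 1 to 244 on ES 3 among the 12 primary arrays and was 257 on M295. ES 1 also had the noisiest negative controls, with a standard deviation of 19.0 intensity units against at most 7.11 on every other array. No spot was saturated. The number of arrays limits the precision of every value below, and p-values set a difference of means against the spread between these samples. Since the number of animals behind a sample is not given, that spread cannot be read as one between mice.

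Levels are given as log2 of the background-subtracted signal divided by the array's 75th percentile over the 108 mouse miRNAs above background on all 12 primary arrays. A level of 0 is therefore that percentile, 1 unit is a factor of 2, and the common floor is -7.59. Different probes set the levels of different members, so members are compared by their changes and not by their levels. Each triplet below follows the replicate numbers 1, 2 and 3.

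mmu-miR-181a-5p measured -0.98, -0.83 and -0.68 on the DN arrays and 1.80, 1.88 and 1.96 on the DP arrays. In T-ALL it measured -2.52, -1.55 and 0.11 on the ES arrays and -0.91, -0.0097 and -0.99 on the LS arrays, with -2.57 on M295. The 3 DP arrays were the highest of all 13 and lay close together, while the ES arrays spread over more than 2 log2 units and enclosed all DN and LS arrays. By group mean ± SD (n = 3) the order was DP at 1.88 ± 0.079, LS at -0.64 ± 0.54, DN at -0.83 ± 0.15 and ES at -1.32 ± 1.33, and the last 3 did not differ beyond their spread.

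mmu-miR-181b-5p measured -1.06, -0.94 and -0.92 in DN and 0.33, 0.35 and 0.40 in DP. It measured -2.24, -1.09 and -1.32 in ES, -0.75, -0.46 and -0.91 in LS, and -2.57 on M295. The DP arrays were again above every other array, and all LS arrays lay just above all DN arrays, which lay above all ES arrays. The means were 0.36 ± 0.038 in DP, -0.71 ± 0.23 in LS, -0.97 ± 0.077 in DN and -1.55 ± 0.61 in ES, and neither LS against DN nor ES against DN passed the test.

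The next members come from chromosome 8. mmu-miR-181c-5p measured -2.86, -2.78 and -2.84 in DN and -1.89, -1.83 and -1.92 in DP. It measured -3.84, -3.72 and -3.50 in ES, -3.60, -3.01 and -3.48 in LS, and -3.80 on M295. All DP arrays lay above all DN arrays, and all DN arrays above all T-ALL arrays, with means of -1.88 ± 0.046 in DP, -2.82 ± 0.042 in DN, -3.36 ± 0.31 in LS and -3.68 ± 0.17 in ES. mmu-miR-181d-5p measured -2.78, -2.60 and -2.67 in DN and -2.72, -2.58 and -2.57 in DP, so that the thymocyte groups overlapped. It measured -3.36, -3.29 and -4.27 in ES, -3.29, -3.24 and -3.07 in LS, and -3.29 on M295. Every T-ALL array was thus below every thymocyte array for miR-181d-5p, with means of -2.63 ± 0.085 in DP, -2.68 ± 0.090 in DN, -3.20 ± 0.12 in LS and -3.64 ± 0.55 in ES.

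mmu-miR-181a-1-3p, the 3p strand of the chromosome 1 hairpin, measured -4.01, -3.74 and -3.64 in DN and -1.54, -1.54 and -1.57 in DP. It measured -4.93, -4.43 and -3.66 in ES, -3.88, -3.16 and -3.88 in LS, and -5.66 on M295. As with miR-181a-5p, the DP arrays stood apart at the top, and ES and LS overlapped with DN. The means were -1.55 ± 0.020 in DP, -3.64 ± 0.42 in LS, -3.80 ± 0.19 in DN and -4.34 ± 0.64 in ES.

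**Figure D1:**
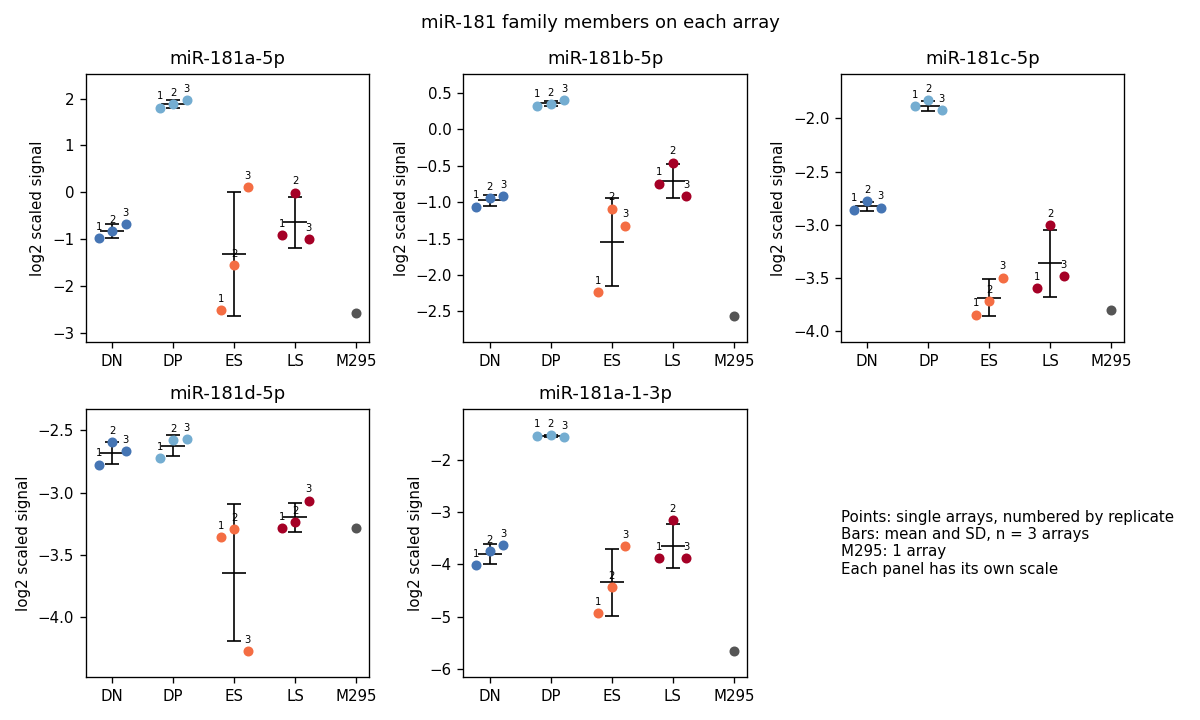
Level of each of the 5 members on every array (vertical axis: log2 of the signal over the array's 75th percentile; horizontal axis: the groups DN, DP, ES, LS and M295). Points are single arrays and bars are the mean ± SD of 3 arrays; the DP points lie above all others for every member except miR-181d-5p, and the ES points of miR-181a-5p run from -2.52 to 0.11.

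The comparison of DP with DN follows the family between 2 sorted stages of normal thymocytes. Some markers of other cells, given below, also differed between these stages, and their part was not tested. Of the 5 members, 4 rose and 1 did not pass the test. miR-181a-5p was 6.54-fold higher in DP, a log2 difference of 2.71 ± 0.54 (SE, n = 3 arrays per group, adjusted p = 0.00393 by limma with Benjamini-Hochberg adjustment over the 229 tested miRNAs). Each SE here and below comes from 1 spread per miRNA shared by the 4 groups, not from the 2 groups compared. For miR-181a-5p the SD was 0.15 in DN and 0.079 in DP, against 1.33 in ES. With only DN and DP fitted, its limma adjusted p was 1.16e-05. miR-181a-1-3p was 4.74-fold higher (2.25 ± 0.32, limma adjusted p = 0.000497), the smallest p of the family. miR-181b-5p was 2.52-fold higher (1.33 ± 0.27, limma adjusted p = 0.00438) and miR-181c-5p 1.92-fold higher (0.94 ± 0.19, limma adjusted p = 0.00407). For miR-181d-5p the difference was 0.06 on the log2 scale with a 95% interval from -0.49 to 0.61 (limma adjusted p = 0.871), and its sign turned with scaling over all mouse miRNAs (-0.24). Of all 229 tested miRNAs 29.3% were called, 18.8% higher and 10.5% lower in DP, against 4 of 5 members higher and 0 lower. The median log2 difference was 1.33 over the members and -0.15 over all tested miRNAs, and miR-181a-5p ranked 10th and miR-181a-1-3p 15th from the top. For the 4 risen members the DN and DP arrays did not overlap, which held for 76% of all tested miRNAs.

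The arrays came from 2 slides that both held DN, DP, ES and LS, and the rises of DP over DN were alike on them. On slide 1, with 1 DN and 1 DP array, the differences were 2.78 for miR-181a-5p, 1.39 for miR-181b-5p, 0.97 for miR-181c-5p, 0.054 for miR-181d-5p and 2.47 for miR-181a-1-3p. On slide 2, with 2 arrays of each, they were 2.67, 1.30, 0.93, 0.058 and 2.13 in the same order. The 2 probes of a member gave nearly the same difference, the widest gap being 1.02 against 0.78 for miR-181c-5p. The call of miR-181c-5p was lost with scaling over all mouse miRNAs (0.65, limma adjusted p = 0.147) or by quantiles (0.74, adjusted p = 0.0523). The first of these settings moved the median difference of all tested miRNAs from -0.15 to -0.45.

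Ratios within an array show how unequal these changes were without any scaling between arrays. Each ratio is given as a log2 difference between 2 members on the same array, set to 0 at the DN mean. miR-181a-5p over miR-181d-5p was 2.65 ± 0.040 in DP (mean ± SD, n = 3 arrays), against an SD of 0.12 among the DN arrays. miR-181b-5p over miR-181d-5p was 1.27 ± 0.061, for strands that are 2 edits apart. miR-181c-5p over miR-181d-5p, the pair from the chromosome 8 locus, was 0.89 ± 0.094. miR-181a-5p over miR-181b-5p was 1.38 ± 0.043, and miR-181a-5p over miR-181c-5p, which are 1 edit apart, was 1.76 ± 0.11. The ratio nearest to 0 in DP was that of miR-181b-5p over miR-181c-5p, at 0.39 ± 0.074, followed by the 5p and 3p strands of miR-181a, with miR-181a-5p over miR-181a-1-3p at 0.46 ± 0.096.

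**Figure D2:**
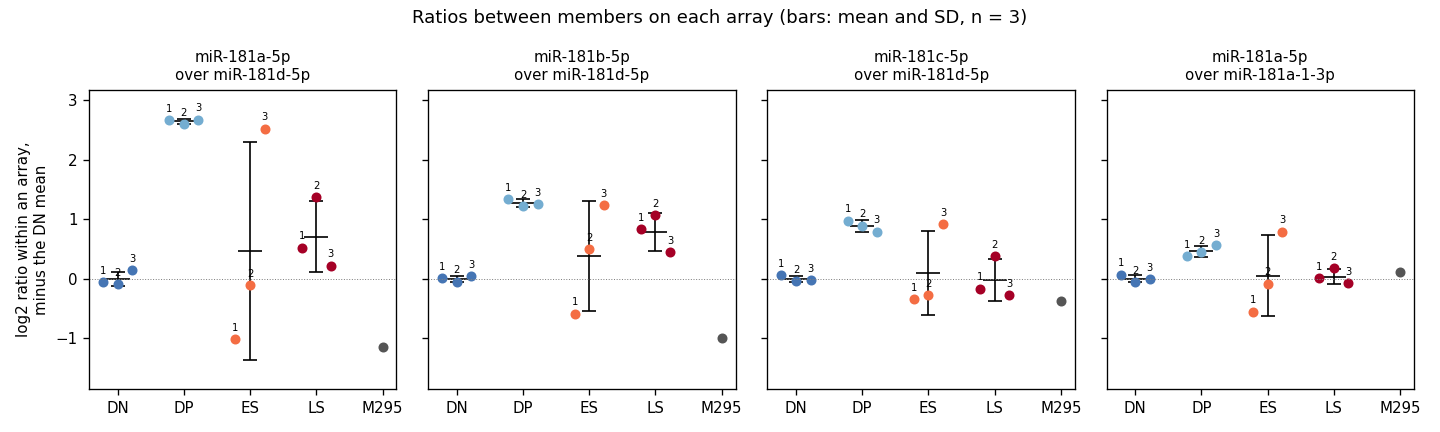
Ratios between members within each array (vertical axis: log2 difference between 2 members, with the DN mean set to 0; horizontal axis: the groups). Points are single arrays; the DP arrays lie tightly together, near 2.65 for miR-181a-5p over miR-181d-5p, while the 3 ES arrays run from -1.01 to 2.52 for the same ratio.

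The comparisons of ES and LS with DP set leukaemic CD4+CD8+ cells against normal cells of the same surface type. All 5 members were lower in ES than in DP, and 4 of 5 in LS. In ES, miR-181a-5p was 9.19-fold lower than in DP, a log2 difference of -3.20 ± 0.54 (SE, n = 3 per group, limma adjusted p = 0.000984), and 8th from the bottom of 229. This difference was -3.91 without ES 3 and -2.60 without ES 1, with the call kept in both. With only ES and DP fitted, its limma adjusted p was 0.0135. miR-181a-1-3p was 6.91-fold lower (-2.79 ± 0.32, limma adjusted p = 0.000103), a value that includes ES 1, where it was not above background. miR-181b-5p was 3.75-fold lower (-1.91 ± 0.27, limma adjusted p = 0.000370), miR-181c-5p 3.49-fold lower (-1.80 ± 0.19, adjusted p = 6.50e-05) and miR-181d-5p 2.02-fold lower (-1.02 ± 0.25, adjusted p = 0.00823). Of all tested miRNAs 46.3% were called, 21% higher and 25.3% lower in ES, against 5 of 5 members lower. The median difference was -1.91 over the members and 0.07 over all tested. No member's ES arrays overlapped its DP arrays, as was so for 58.1% of tested miRNAs. In bulk samples such as these, fewer cells of a type and less RNA per cell cannot be told apart.

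In LS, miR-181a-5p was 5.73-fold lower than in DP (-2.52 ± 0.54, n = 3 per group, limma adjusted p = 0.00314) and miR-181a-1-3p 4.26-fold lower (-2.09 ± 0.32, limma adjusted p = 0.000443). miR-181c-5p was 2.79-fold lower (-1.48 ± 0.19, limma adjusted p = 0.000163) and miR-181b-5p 2.09-fold lower (-1.06 ± 0.27, limma adjusted p = 0.00803). miR-181d-5p did not pass, at -0.57 with a 95% interval from -1.12 to -0.022 (limma adjusted p = 0.0676), although its LS and DP arrays did not overlap. Of all tested miRNAs 58.5% were called, 32.3% higher and 26.2% lower in LS, against 4 of 5 members lower, and 78.2% had groups that did not overlap, against 5 of 5. The median difference was -1.48 over the members and 0.19 over all tested. Without ES 3, which enters this comparison through the shared estimate of the spread, miR-181d-5p was called (adjusted p = 0.00245). The ES and LS comparisons share the 3 DP arrays and are not independent of each other.

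Within slides the direction of every member was the same in both comparisons. For ES minus DP the values on slides 1 and 2 were -3.84 and -1.81 for miR-181a-5p, -1.99 and -1.69 for miR-181b-5p, and -1.89 and -1.62 for miR-181c-5p. They were -0.60 and -1.69 for miR-181d-5p and -3.14 and -2.10 for miR-181a-1-3p. ES 3 is the only ES array on slide 2, so the gaps between slides in miR-181a-5p and miR-181d-5p are also gaps between ES 3 and the other ES arrays. For LS minus DP they were -2.26 and -2.91 for miR-181a-5p, -0.93 and -1.29 for miR-181b-5p, -1.41 and -1.60 for miR-181c-5p, -0.54 and -0.49 for miR-181d-5p, and -1.98 and -2.33 for miR-181a-1-3p. With scaling over all mouse miRNAs in place of the 108, the ES minus DP difference of miR-181d-5p was -0.48 and lost its call (limma adjusted p = 0.414), while the median of all tested miRNAs moved from 0.07 to 0.59.

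**Figure D3:**
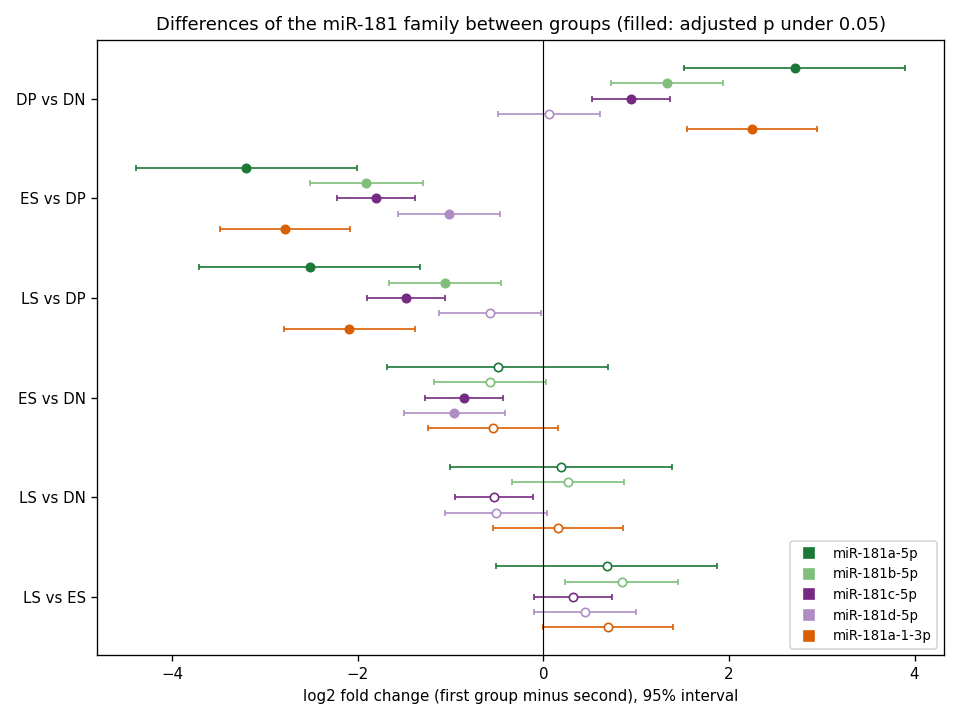
Log2 difference of each member in the 6 comparisons (horizontal axis: log2 difference, first group minus second; bars: 95% interval of the limma fit, n = 3 arrays per group; filled and open marks: adjusted p under 0.05 or not). DP lies above DN for 4 members, ES and LS lie below DP, and the intervals of miR-181a-5p for ES and for LS against DN reach across 0.

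Set against DN thymocytes, both members from chromosome 8 were lower in ES. There miR-181c-5p was 1.82-fold lower than in DN (-0.86 ± 0.19, n = 3 per group, limma adjusted p = 0.0285) and miR-181d-5p 1.94-fold lower (-0.96 ± 0.25, limma adjusted p = 0.0466). The other 3 members did not pass: miR-181a-5p measured -0.49 with a 95% interval from -1.68 to 0.70 (limma adjusted p = 0.567), miR-181b-5p -0.58 (adjusted p = 0.204) and miR-181a-1-3p -0.54 (adjusted p = 0.265). The test called 6.55% of all tested miRNAs, 3.93% higher and 2.62% lower in ES, against 2 of 5 members lower. The median was -0.58 over the members and -0.04 over all tested. The groups did not overlap for miR-181b-5p, miR-181c-5p and miR-181d-5p, 3 of 5 members, and for 36.2% of all tested miRNAs. In 12 other settings the call of miR-181c-5p held in 5 and that of miR-181d-5p in 2. The call of miR-181c-5p was also lost when any 1 of the 6 DN or DP arrays was left out (adjusted p up to 0.127), and that of miR-181d-5p when any 1 of the 9 DN, DP or LS arrays was left out (adjusted p up to 0.182). Values within slides 1 and 2 were -0.92 and -0.69 for miR-181c-5p, -0.55 and -1.64 for miR-181d-5p, and -0.60 and -0.39 for miR-181b-5p. For miR-181a-5p they opposed each other, at -1.06 and 0.86, and for miR-181a-1-3p they were -0.67 and 0.035. Without ES 1, the difference of miR-181a-5p was 0.11.

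No member was called between LS and DN, where 33.2% of tested miRNAs were called, 25.8% higher and 7.42% lower in LS. At an unadjusted p under 0.05 limma gave 1 member, miR-181c-5p, at -0.54 with a 95% interval from -0.96 to -0.12 (limma adjusted p = 0.0509). miR-181d-5p measured -0.51 with an interval from -1.06 to 0.035 (limma adjusted p = 0.143). miR-181a-5p measured 0.19 ± 0.54 (SE, adjusted p = 0.827), miR-181b-5p 0.27 ± 0.27 (adjusted p = 0.505) and miR-181a-1-3p 0.16 ± 0.32 (adjusted p = 0.775), errors too wide to show that LS and DN have the same level. These 3 differences turned to -0.31, -0.24 and -0.35 with scaling over all mouse miRNAs, which moved the median of all tested miRNAs from 0.16 to -0.31. The median was 0.16 over the members and 0.16 over all tested. LS and DN arrays did not overlap for miR-181b-5p, which was higher in LS, and for miR-181c-5p and miR-181d-5p, which were lower; 57.6% of all tested miRNAs had groups that did not overlap. miR-181c-5p was called without ES 1 (adjusted p = 0.0457), ES 3 (0.0187) or LS 2 (-0.71, adjusted p = 0.0261), and miR-181d-5p without ES 3 (adjusted p = 0.00677). Without LS 2, miR-181a-5p was at -0.12 and miR-181a-1-3p at -0.086, below DN in place of above it. Within slides 1 and 2 the differences were 0.52 and -0.24 for miR-181a-5p, 0.46 and 0.015 for miR-181b-5p, -0.44 and -0.67 for miR-181c-5p, -0.48 and -0.43 for miR-181d-5p, and 0.49 and -0.19 for miR-181a-1-3p.

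The comparison of LS with ES asks whether the family differs between stages of the leukaemia, and no member was called. limma gave 1 member at an unadjusted p under 0.05, miR-181b-5p, at 0.84 with a 95% interval from 0.24 to 1.45 (limma adjusted p = 0.202). miR-181a-5p measured 0.68 with an interval from -0.51 to 1.88 (limma adjusted p = 0.508), miR-181a-1-3p 0.70 (adjusted p = 0.324), miR-181d-5p 0.44 (adjusted p = 0.392) and miR-181c-5p 0.32 (adjusted p = 0.394). Of all tested miRNAs 6 were called, or 2.62%, with 2.18% higher and 0.437% lower in LS, and the median was 0.28, against 0.68 over the members. With scaling over all mouse miRNAs that median became -0.38, and the differences of 4 members turned below 0, to -0.059 for miR-181a-5p, -0.043 for miR-181a-1-3p, -0.30 for miR-181d-5p and -0.42 for miR-181c-5p. The groups did not overlap for miR-181b-5p and miR-181d-5p, 2 of 5 members, and for 11.4% of all tested.

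This stage comparison turned on single ES arrays. Without ES 3, miR-181a-5p was 1.40 higher in LS on the log2 scale (limma adjusted p = 0.0205), miR-181a-1-3p 1.04 higher (adjusted p = 0.0205) and miR-181b-5p 0.96 higher (adjusted p = 0.0435). The number of miRNAs called rose from 6 to 55 at the same time. ES 1, the array with the noisiest negative controls, moved the differences the other way. Without it miR-181a-5p was at 0.084 (limma adjusted p = 0.944), miR-181a-1-3p at 0.40 (0.627) and miR-181b-5p at 0.50 (0.325). On slide 1, which holds ES 1 and ES 2, LS minus ES was 1.57 for miR-181a-5p, 1.06 for miR-181b-5p, 0.48 for miR-181c-5p, 0.064 for miR-181d-5p and 1.16 for miR-181a-1-3p. On slide 2, which holds 1 ES array, ES 3, and 1 LS array, LS 3, the same differences were -1.10, 0.41, 0.017, 1.21 and -0.23.

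ES 3 stood apart within the family as well. It had the highest miR-181a-5p and miR-181a-1-3p and the lowest miR-181d-5p of the ES arrays. Its ratio of miR-181a-5p over miR-181d-5p was 2.52, beside -1.01 on ES 1 and -0.11 on ES 2, and lay near the DP mean of 2.65. Its ratio of miR-181c-5p over miR-181d-5p was 0.92 and that of miR-181b-5p over miR-181d-5p was 1.24, both within the range of the DP arrays. The levels themselves were not those of DP, since every member was lower on ES 3 than on any DP array.

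The ratios on the LS arrays followed no single order against DN and DP. miR-181a-5p over miR-181d-5p was 0.70 ± 0.60 and miR-181b-5p over miR-181d-5p 0.78 ± 0.32 (mean ± SD, n = 3), both above DN and below DP on all 3 LS arrays. miR-181c-5p over miR-181d-5p was -0.022 ± 0.35, and miR-181a-5p over miR-181a-1-3p was 0.035 ± 0.13, both around the DN mean, as was miR-181a-5p over miR-181b-5p at -0.076 ± 0.33. miR-181b-5p over miR-181c-5p was 1.00, 0.70 and 0.71 on the LS arrays, above the 0.33 to 0.47 of the DP arrays.

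Markers of other cells that a sort could hold were read as summed scaled signals, in units of the array's 75th percentile. ES 3 stood apart here too. Of 2 myeloid names, miR-223-3p was above background on some arrays and miR-223-5p on none, and their sum was 7.23 on ES 3 against 0.00430 to 0.0337 on every other array. The sum of the mature lymphocyte miRNAs miR-150-5p and miR-342-3p was also highest on ES 3, at 0.620. The erythroid sum, with 2 of 3 names ever above background and miR-144-5p never, was 0.754 to 1.02 in DN, 0.0115 to 0.0224 in DP, 0.0158 to 0.389 in ES and 0.0896 to 1.61 in LS. The highest LS value was that of LS 2, which also had the highest miR-181a-5p of the LS arrays. None of 3 stromal miRNAs was above background on any array, nor was miR-126-5p, while miR-126-3p and 3 of 5 epithelial names were on at least 1 array. The sum of both miR-126 names was 0.0403 to 0.0425 in DN and 0.0104 to 0.0114 in DP. The myeloid sum was 0.0252 to 0.0337 in DN and 0.00630 to 0.00901 in DP. The erythroid, myeloid and miR-126 sums were thus higher on every DN array than on any DP array. The epithelial and mature lymphocyte sums were lower on every DN array. The part of these other cells in the differences of the family was not tested.

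The M295 line, read on 1 array and therefore without a test, had the lowest miR-181a-5p, miR-181b-5p and miR-181a-1-3p of the 13 arrays. It lay below the median of the 6 ES and LS arrays by 1.62 log2 units for miR-181a-5p, by 1.57 for miR-181b-5p and by 1.77 for miR-181a-1-3p. From the lowest of those arrays it was only -0.056 away for miR-181a-5p, -0.33 for miR-181b-5p and -0.72 for miR-181a-1-3p. For the chromosome 8 members it was inside the range of those arrays, -0.25 from their median for miR-181c-5p and 0.0036 for miR-181d-5p, which became -1.03 and -0.60 with scaling over all mouse miRNAs. Its ratio of miR-181a-5p over miR-181d-5p was -1.14 relative to DN, close to that of ES 1.

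Pearson correlations of levels over the 12 primary arrays describe how the members varied together. The arrays share groups, slides and scaling, so no p is given. miR-181a-5p and miR-181a-1-3p, whose sequences are the arms of the Mir181a-1 hairpin printed above, had r = 0.984, and 0.968 after group means were removed. miR-181a-5p had r = 0.923 with miR-181b-5p and 0.888 with miR-181c-5p. With miR-181d-5p it had r = 0.358, and -0.808 within groups, where ES 3 combines the highest ES level of one with the lowest of the other. miR-181c-5p and miR-181d-5p, from neighbouring genes, had r = 0.704.

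Outside the family, the tested miRNAs most like miR-181a-5p were miR-195-5p (r = 0.973), miR-30d-5p (0.959) and miR-30b-5p (0.932). Those most like miR-181a-1-3p were miR-30e-5p (0.957), miR-30c-5p (0.954) and miR-30d-5p (0.954), and those most like miR-181c-5p were miR-30c-5p (0.976), miR-30e-5p (0.964) and miR-30e-3p (0.964). miR-181b-5p was most like miR-30e-3p (0.909), miR-1839-3p (0.907) and miR-669n (0.895). miR-181d-5p had other neighbours, miR-130b-3p (0.919), miR-25-3p (0.908) and miR-128-3p (0.898). Between DP and DN, miR-195-5p differed by 1.53 (limma adjusted p = 0.00987) and miR-30d-5p by 0.56 (0.0377), both less than the 2.71 of miR-181a-5p. The level of miR-195-5p was at the floor of -7.59 on ES 1 and near it on the DN arrays, at -6.89, -6.70 and -6.89. Its r and its ES difference thus include a floored value. miR-669n, at 2.45 (0.00672), and miR-1839-3p, at 1.29 (0.000972), stood beside 1.33 for miR-181b-5p. miR-130b-3p was at -0.08 (0.838), and miR-25-3p at 0.30 (0.329), miR-128-3p at 0.38 (0.439) and miR-30b-5p at 0.64 (0.0772) did not pass either. Every one of these neighbours was also lower in ES than in DP. There miR-669n was at -3.39 (limma adjusted p = 0.000807), miR-195-5p at -1.50 (0.00848) and miR-128-3p at -1.86 (0.00165). miR-130b-3p did not pass, at -0.54 (0.104). These neighbours were picked by correlation with the members over the same arrays. Their shared fall from DP to ES goes with that choice and is no separate result. Among them, miR-195-5p, miR-669n and miR-1839-3p were called higher in DP than in DN and lower in ES than in DP. That pattern was thus also seen outside the family.

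For context, 12 miRNAs with known roles in T-cell development or activation were taken as a list, of which 10 were tested; miR-146a-5p and miR-125b-5p did not pass the filter. Between DP and DN, 0 of 10 rose and 1 fell, miR-21-5p, an anti-apoptotic miRNA, at -2.31 (limma adjusted p = 0.00225). The list's median was 0.04, and 18.8% of all tested miRNAs were called higher and 10.5% lower. Between ES and DP, 2 of 10 rose and 2 fell, with a median of -0.23, where 21% of all tested miRNAs were called higher and 25.3% lower: miR-21-5p (3.55, limma adjusted p = 0.000112) and miR-342-3p (2.45, 0.000501) rose, and miR-128-3p (-1.86, 0.00165) and miR-26a-5p (-2.60, 0.00482) fell. Between LS and DP, 2 of 10 rose and 3 fell, with a median of -0.30, where 32.3% of all tested were called higher and 26.2% lower: miR-21-5p (3.03, limma adjusted p = 0.000233) and miR-342-3p (2.40, 0.000465) rose, and miR-128-3p (-1.77, 0.00193), miR-26a-5p (-2.09, 0.0109) and miR-155-5p (-3.07, 0.0328), which is induced on lymphocyte activation, fell. miR-342-3p is also one of the mature lymphocyte markers above.

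Against DN the same list had a median of -0.15 in ES and -0.51 in LS. Of its 10 tested miRNAs 1 rose and 1 fell in ES, where 3.93% of all tested were called higher and 2.62% lower, and 1 rose and 2 fell in LS, where 25.8% were called higher and 7.42% lower. miR-342-3p rose in ES (1.58, limma adjusted p = 0.0336) and in LS (1.53, 0.0140), and miR-128-3p fell in ES (-1.48, 0.0336) and in LS (-1.40, 0.0140), where miR-155-5p also fell (-3.47, 0.0318). Between LS and ES limma called 0 of 10, where 2.62% of all tested were called, with a median of -0.12, and 0 of 10 at an unadjusted p under 0.05.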

How the data were processed

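Total RNA prepared with the miRNeasy kit and labelled with Cy3 was hybridised to 1-colour Agilent miRNA arrays, 1 per sample. Per the file headers, images were read with Feature Extraction 10.7.3.1 and the deposited scanner files hold a background-subtracted intensity per spot, not scaled between arrays. A further table from the authors holds deposited log2 values. It ranks miRNAs on each array as the scanner's total signal per miRNA does (Spearman correlation at least 0.999999), and all of its columns have a median of 3.29. The submitters' processing notes list 4 tools, RMA, affy, MAS5 and GCOS, and give neither version nor role. This table served as an alternative.

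Control spots and outlier spots (4.03 to 8.60% per array) were removed, the mean of the spots was taken for each probe and of the probes for each miRNA, and arrays were scaled to the 75th percentile of 108 miRNAs, floored at -7.59 and put on the log2 scale. The 12 primary arrays were fitted together with limma 3.58.1 in R 4.3.3 (files read with data.table, version 1.17.8), 1 mean per group, and p-values were adjusted by Benjamini-Hochberg over 229 miRNAs in each of 6 comparisons. A call is an adjusted p under 0.05. M295 was left out of the fit. Errors of differences are standard errors from 1 spread per miRNA shared by the 4 groups, and those of group means are standard deviations.

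The rule for members uses names and no measured value, but family, lists and comparisons were chosen with earlier results of these data known. Named are the 5 members, all other miR-181 names, all names sharing the seed of miR-181a-5p, the 3 miRNAs most correlated with each member over the 12 primary arrays, and up to 4 called miRNAs of the T-cell list by smallest adjusted p; miR-155-5p between LS and DP, the fifth, was named after its value was seen. The alternatives were normexp background correction with an offset of 50, scaling over all mouse miRNAs, quantile scaling, the authors' table, the scanner's total signal, no filter, slide and replicate blocks, each slide alone, only the groups compared, an intensity trend and leaving out each array. Replicate numbers showed no regular pairing of the samples: over 18 pairs of equal number the correlation of deviations from group means ran from -0.34 to 0.50 and was over 0.1 in 6. For replicates 1, 2 and 3 it was -0.011, 0.46 and 0.23 between DN and DP, and 0.22, 0.18 and 0.50 between DP and LS. Whether samples of equal number shared a mouse is not given and was not tested. Coordinates come from RefSeq on GRCm38.p6 and not from the arrays. Figures were drawn with matplotlib 3.10.9 in Python 3.11.15.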

Additional observations from a re-analysis of the deposited data

How the results depend on the processing

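Calls that held under nearly every setting were the rises of miR-181a-5p, miR-181b-5p and miR-181a-1-3p in DP over DN and the falls of these 3 and of miR-181c-5p in ES and LS against DP. Each kept its direction and call in all 12 fits that left out 1 array and in 11 of 12 other settings, the exception being slide 1 alone, which has 1 DN and 1 DP array. These settings were not 12 separate checks. The scanner's total signal gave nearly the same values as the main fit, and slide 2 alone carries no spread of ES or LS. The cause of the changes below was not tested, except that single slides and the fits of only 2 groups hold fewer arrays. Differences are log2, first group minus second, with limma adjusted p in brackets.

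With normexp correction the numbers of called miRNAs were 42 for DP vs DN, 0 for ES vs DN (38 at an unadjusted p under 0.05), 46 for LS vs DN and 3 for LS vs ES. ES vs DN gave -0.59 for miR-181c-5p (0.0773) and -0.67 for miR-181d-5p (0.112), LS vs DN gave -0.45 for miR-181c-5p (0.0427) and -0.0018 for miR-181a-1-3p (0.996), and DP vs DN gave -0.018 for miR-181d-5p (0.937). M295 lay -1.01 from the T-ALL median for miR-181a-1-3p. With scaling over all mouse miRNAs, 42 were called in ES vs DN. DP vs DN gave 0.65 for miR-181c-5p (0.147) and -0.24 for miR-181d-5p, ES vs DP -0.48 for miR-181d-5p (0.414), and ES vs DN -0.62 for miR-181c-5p (0.202) and -0.72 for miR-181d-5p (0.337). LS vs DN gave -1.04 for miR-181c-5p (0.0300), -0.31 for miR-181a-5p, -0.24 for miR-181b-5p and -0.35 for miR-181a-1-3p. LS vs ES gave -0.059 for miR-181a-5p, -0.42 for miR-181c-5p, -0.30 for miR-181d-5p and -0.043 for miR-181a-1-3p. M295 then lay -1.03 from the T-ALL median for miR-181c-5p, -0.60 for miR-181d-5p and -2.44 for miR-181a-1-3p. This scaling moved the median of all tested miRNAs to -0.31 in LS vs DN and -0.38 in LS vs ES, from 0.16 and 0.28. With quantile scaling 28 were called in ES vs DN and 2 in LS vs ES. DP vs DN gave 0.74 for miR-181c-5p (0.0523) and -0.074 for miR-181d-5p, ES vs DN -1.23 for miR-181d-5p (0.0750), LS vs DN -0.99 for miR-181c-5p (0.0136) and -0.37 for miR-181a-1-3p, and M295 lay at -0.57 for miR-181c-5p. The authors' table gave -1.07 for miR-181d-5p in ES vs DN (0.0671), -0.88 for miR-181c-5p (0.0114) and -0.30 for miR-181a-1-3p in LS vs DN, and -0.072 for miR-181d-5p in DP vs DN. The scanner's total signal per miRNA changed no member's call or direction.

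With all mouse miRNAs tested, limma called 1 in ES vs DN, 21 in LS vs DN and 0 in LS vs ES (42 at an unadjusted p under 0.05), and in ES vs DN miR-181c-5p stood at -0.86 (0.0949) and miR-181d-5p at -0.96 (0.254). With the slide as a block 9 were called in ES vs DN and 3 in LS vs ES, and the chromosome 8 members stood at -0.85 for miR-181c-5p (0.0531) and -0.996 for miR-181d-5p (0.0769) in ES vs DN. With the replicate number as a block, which is not known to pair these samples (5 of 12 arrays correlated best with their own number), 6 were called in ES vs DN and 3 in LS vs ES, with -0.86 (0.0515) and -0.96 (0.0896) for the same members. It changed no other call of a member. With only the 2 groups compared, 164 were called in DP vs DN, 62 in ES vs DP, 3 in ES vs DN and 0 in LS vs ES (14 at an unadjusted p under 0.05 by limma). miR-181d-5p then stood at -1.02 in ES vs DP (0.0586), -0.57 in LS vs DP (0.0144), -0.51 in LS vs DN (0.0147) and -0.96 in ES vs DN (0.233), and miR-181c-5p at -0.86 in ES vs DN (0.0504). With an intensity trend miR-181d-5p stood at -0.96 in ES vs DN (0.0525).

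On slide 1 alone DN and DP have 1 array each, assumed to vary like the 2 ES and 2 LS arrays. The numbers called were 18 for DP vs DN, 29 for ES vs DP, 56 for LS vs DP, 3 for ES vs DN, 3 for LS vs DN and 0 for LS vs ES (56 at an unadjusted p under 0.05 by limma). DP vs DN gave 2.78 for miR-181a-5p (0.200), 1.39 for miR-181b-5p (0.397), 0.97 for miR-181c-5p (0.294) and 2.47 for miR-181a-1-3p (0.145). ES vs DP gave -3.84 for miR-181a-5p (0.0803), -1.99 for miR-181b-5p (0.154), -1.89 for miR-181c-5p (0.0747), -0.60 for miR-181d-5p (0.0605) and -3.14 for miR-181a-1-3p (0.0605). LS vs DP gave -2.26 (0.111), -0.93 (0.326), -1.41 (0.0761), -0.54 (0.0496) and -1.98 (0.0794) in the same order, and ES vs DN -0.92 for miR-181c-5p (0.508) and -0.55 for miR-181d-5p (0.272). On slide 2 alone ES and LS have 1 array each, assumed to vary like the 2 DN and 2 DP arrays that give all of the spread, so the p-values there carry no spread of ES or LS. The numbers called were 123 for DP vs DN, 165 for ES vs DP, 137 for ES vs DN, 118 for LS vs DN and 114 for LS vs ES. LS vs DP gave -0.49 for miR-181d-5p (0.0404). LS vs DN gave -0.67 for miR-181c-5p (0.0228), -0.24 for miR-181a-5p and -0.19 for miR-181a-1-3p. LS vs ES gave 1.21 for miR-181d-5p (0.00839), -1.10 for miR-181a-5p (0.0122) and -0.23 for miR-181a-1-3p, and ES vs DN 0.86 for miR-181a-5p (0.00968) and 0.035 for miR-181a-1-3p.

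Leaving out each array in turn, the number called ran from 44 (without DP 3) to 101 (without ES 3) in DP vs DN, from 69 (without DP 3) to 120 in ES vs DP, from 99 to 164 in LS vs DP, from 0 (without any 1 of the DN arrays, with 36 to 45 at an unadjusted p under 0.05 by limma) to 40 (without ES 2) in ES vs DN, from 32 (without LS 1) to 117 (without ES 3) in LS vs DN and from 1 (without LS 1) to 55 (without ES 3) in LS vs ES. In ES vs DN the difference ran from -0.95 to -0.78 for miR-181c-5p, from -1.13 to -0.64 for miR-181d-5p and from -1.20 to 0.11 for miR-181a-5p. In LS vs DN it ran from -0.71 to -0.42 for miR-181c-5p, from -0.58 to -0.47 for miR-181d-5p, from -0.12 to 0.37 for miR-181a-5p and from -0.086 to 0.28 for miR-181a-1-3p. In LS vs DP it ran from -0.64 to -0.53 for miR-181d-5p, and in LS vs ES from 0.084 to 1.40 for miR-181a-5p, from 0.50 to 1.07 for miR-181b-5p and from 0.40 to 1.04 for miR-181a-1-3p. In ES vs DP it ran from -3.91 (without ES 3) to -2.60 (without ES 1) for miR-181a-5p. ES 1 had the noisiest background, and miR-181a-1-3p was not well above background there.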
